A study of Homo sapiens with 6 samples.

Results

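The genes that copy DNA and divide the cell were followed in lung epithelial cells treated with transforming growth factor-beta 1 (TGF-β1). The set held 53 genes of the 25737 entries in each library, of which 20 act in DNA replication and the G1/S transition and 33 act in mitosis and the G2/M transition. They were picked by gene symbol from known roles in the cell cycle, with earlier results of these data known. Every symbol had exactly 1 entry in the count tables. A549, an established line from a lung carcinoma, and BEAS-2B, an established line of bronchial epithelium that was immortalized, were each measured without TGF-β1 and with 1 or 5 ng/mL. The genotype was given as WT for both lines, so the 6 groups differed in cell line and dose. TGF-β1 was added 24 h after seeding and left for 48 h, in a medium with less serum than the growth medium. The labels give "none" as the treatment of the control and do not state its medium, so the effects of TGF-β1 and of serum cannot be told apart here. Each condition had 1 library, so no difference could be compared with the spread between cultures and no p-value is given. Both doses of a line were compared with the same control library.

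Cell cycle genes are transcribed in waves. E2F factors, released from RB proteins, drive the G1/S genes that license origins, unwind DNA and supply nucleotides. Later, complexes built on MuvB, with MYBL2 and FOXM1 as partners, drive the G2/M genes for cyclins, kinases, the spindle and the kinetochore. In many epithelial cells TGF-β1 is known to hold back the cell cycle, and carcinoma cells often escape this brake.

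Promoter sequences of these genes are shown first because both waves are read from short elements close to the transcription start. RefSeq promoter windows on GRCh38.p14, from 250 bases before to 50 bases after a start, were matched by symbol for 44 of the 53 genes, 17 replication and 27 mitosis genes. TPX2, MCM4, TTK, MCM5, BIRC5, FOXM1, UBE2C, AURKA and CCNE2 were not matched. An E2F element was searched as TTTGGCGC, TTTCCCGC, TTTCGCGC or TTTGCCGC, and a cell cycle genes homology region (CHR), the element bound by MuvB complexes, as TTTGAA. Both strands were searched for each. The E2F letters stood in 12 of 17 replication genes (70.6%) and in 3 of 27 mitosis genes (11.1%), against 3.31% of all 35116 windows and 3.99% of all 27305 genes with a window. The CHR letters showed the opposite split, with 1 of 17 replication genes (5.88%) and 17 of 27 mitosis genes (63%), against 15.2% of all windows and 18.2% of all genes. CCAAT, the letters of the NF-Y box, stood in 76.5% of the replication genes and 85.2% of the mitosis genes, against 34.6% of windows and 39.7% of genes. A gene counted when any of its windows held the letters, and a match describes the letters and not a bound site.

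The windows below run from 250 bases before to 30 bases after the start, 5′ to 3′ on the strand of the gene, with the E2F and CHR letters in capitals. They cover MCM2 (chr3:127598161-127598440, plus strand) and E2F1 (chr20:33686356-33686635, minus strand) with E2F letters. CENPA (chr2:26785806-26786085, plus strand), PLK1 (chr16:23678639-23678918, plus strand), CCNB2 (chr15:59104896-59105175, plus strand) and TOP2A (chr17:40417867-40418146, minus strand) hold CHR letters, and CENPA also holds E2F letters. They were chosen, with the values known, because genes with the same element differed in their values under TGF-β1.
MCM2: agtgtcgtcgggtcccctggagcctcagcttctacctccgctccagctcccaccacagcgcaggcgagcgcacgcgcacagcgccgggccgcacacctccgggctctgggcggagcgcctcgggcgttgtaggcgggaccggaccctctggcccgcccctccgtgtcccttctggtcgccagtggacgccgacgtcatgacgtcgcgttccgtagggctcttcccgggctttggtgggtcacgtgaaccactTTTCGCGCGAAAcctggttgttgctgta
E2F1: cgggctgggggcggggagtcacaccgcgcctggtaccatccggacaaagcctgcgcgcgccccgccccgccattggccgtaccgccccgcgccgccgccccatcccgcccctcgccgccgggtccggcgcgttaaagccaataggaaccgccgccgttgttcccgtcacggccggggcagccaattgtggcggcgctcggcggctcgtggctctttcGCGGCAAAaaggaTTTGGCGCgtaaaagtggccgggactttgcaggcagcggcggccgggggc
CENPA: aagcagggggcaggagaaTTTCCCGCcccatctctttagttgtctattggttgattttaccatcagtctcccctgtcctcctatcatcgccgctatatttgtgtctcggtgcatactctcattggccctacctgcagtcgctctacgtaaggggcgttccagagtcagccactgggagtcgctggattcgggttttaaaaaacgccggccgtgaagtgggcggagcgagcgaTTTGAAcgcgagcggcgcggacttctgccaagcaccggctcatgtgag
PLK1: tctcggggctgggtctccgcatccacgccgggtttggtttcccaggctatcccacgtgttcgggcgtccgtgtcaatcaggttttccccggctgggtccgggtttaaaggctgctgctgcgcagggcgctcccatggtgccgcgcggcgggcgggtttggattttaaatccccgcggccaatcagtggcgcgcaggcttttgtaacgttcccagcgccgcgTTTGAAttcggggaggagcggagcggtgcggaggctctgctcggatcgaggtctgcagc
CCNB2: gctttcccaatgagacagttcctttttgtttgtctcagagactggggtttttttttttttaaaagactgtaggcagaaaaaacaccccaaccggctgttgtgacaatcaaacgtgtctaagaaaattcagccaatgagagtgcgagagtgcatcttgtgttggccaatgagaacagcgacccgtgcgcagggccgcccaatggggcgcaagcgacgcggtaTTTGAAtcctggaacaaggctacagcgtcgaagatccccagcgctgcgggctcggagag
TOP2A: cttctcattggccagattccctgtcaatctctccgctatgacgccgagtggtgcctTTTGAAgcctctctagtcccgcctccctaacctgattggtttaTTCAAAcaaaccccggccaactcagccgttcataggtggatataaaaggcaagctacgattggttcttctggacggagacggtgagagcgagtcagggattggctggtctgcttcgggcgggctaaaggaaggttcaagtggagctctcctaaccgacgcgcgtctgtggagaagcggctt
Counted from the start site, the CHR letters began at −18 in CENPA and at −29 in both PLK1 and CCNB2. The E2F letters of CENPA began at −232. In TOP2A, 2 matches began at −194 and −151. The matches in E2F1 began at −33 and −20, and those in MCM2 overlapped each other from base 3 behind the start. PLK1 and CCNB2, shown because their values differed, carried the same 6 letters at the same distance. Their values are given below, and values were not tallied by element over all matched genes.

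The libraries held between 4120624 and 7841350 counts, and the genes of the set between 11 counts (CCNE2 in A549 at 5 ng/mL) and 18441 counts (TOP2A in the same library). Normalized counts are counts after scaling by TMM, edgeR's trimmed mean method. FC is the ratio of normalized counts after adding 1 to each, and the ND value is the log2 of a normalized count to which 1 was added. A gene is called lower or higher when its FC was at least 2 and its ND value at least 7 (a normalized count of 127) in at least 1 of the compared libraries. Brackets after a log2 FC hold its exact 95% Clopper-Pearson counting interval, which covers counting error only. Markers set limits to the labels: BEAS-2B had 0 counts of EPCAM and at most 2 of CDH1, both defining epithelial genes, and 0 or 1 count of KRT5, KRT14 and TP63, which mark airway basal cells. KRT17, the other basal marker listed, had 247, 2768 and 3006 counts in BEAS-2B at 0, 1 and 5 ng/mL and 2 to 8 counts in A549. A549 had 0 counts of the alveolar type 2 genes SFTPA1 and SFTPC. KRT18, an epithelial keratin, was present in all libraries with 717 to 14592 counts. Summed over PTPRC, PECAM1, DCN, PDGFRB and COL1A2, markers of other cells, the normalized level was 8.11, 284 and 56.3 in A549 at 0, 1 and 5 ng/mL and 161, 280.2 and 351 in BEAS-2B, with PTPRC and PECAM1 at 0 to 4 counts throughout. The part of these markers in the values below was not tested.

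At 5 ng/mL TGF-β1, the cell cycle genes of A549 lay on both sides of the control, and those of BEAS-2B were mostly lower. In A549, MCM2, PCNA, CDC25B and CENPA were called lower, and MCM5, CDT1, UHRF1, E2F1, CDC20, PLK1, AURKB, TOP2A, PTTG1 and MYBL2 were called higher. These were 4 and 10 of the 48 genes that reached the minimum, against 17.1% and 16.1% of all 7115 entries that did. Under total counts in place of TMM, 5 were lower and 7 higher. In BEAS-2B, RRM2, CCNB2, CDC25B, UBE2C and FOXM1 were called lower, 5 of 48 genes against 11.6% of 6735 entries, with 11 under total counts and 3 under upper quartile factors. None of the set was called higher there, against 7.33% of all entries. Shares of all entries were not counted under total counts or upper quartile factors.

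At a lower limit the lines separated further. With an FC of at least 1.5, 20 of 48 genes (41.7%) were lower in BEAS-2B against 22.2% of all entries, and 0 were higher against 19.2%. Of these 20, 8 were replication and 12 were mitosis genes. PCNA, MCM6, GINS1, GINS2, TK1 and BUB1 fell short of this limit under at least 1 other scaling. CDC25C, NUSAP1 and HMMR, not among the 20, passed it under at least 1, so the count depends on the scaling. No such excess of lower genes was seen in A549. There, 7 genes (14.6%) were lower against 26.2% of all entries, and 16 (33.3%) were higher against 29.9%. The counting interval lay below an FC of 1 for 14 genes and above it for 26 in A549. In BEAS-2B it lay below for 32 genes and above for 7. Intervals were not counted over all entries, so these numbers do not show whether the set is unusual. Fewer dividing cells and less RNA of these genes per cell cannot be told apart in bulk libraries. The plot of both lines gene by gene shows a higher log2 FC in A549 than in BEAS-2B for 43 of the 53 genes. This order was not counted over all entries, whose median log2 FC was 0.11 in A549 and 0.03 in BEAS-2B.

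**Figure D1:**
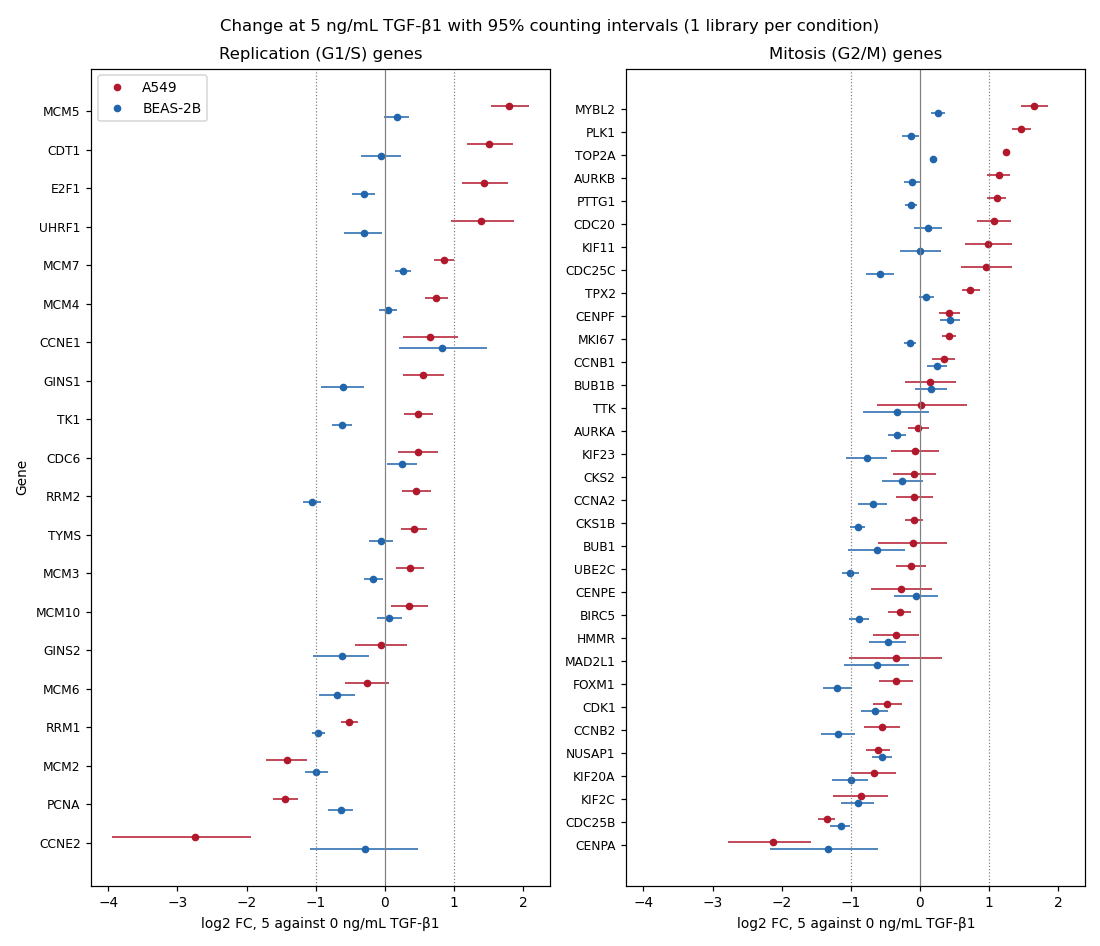
The x axis gives log2 FC at 5 against 0 ng/mL TGF-β1 and the y axis the gene, with A549 in red, BEAS-2B in blue, bars for the 95% counting interval and dotted lines at an FC of 2. Values of A549 run from −2.75 (CCNE2) to 1.80 (MCM5), and values of BEAS-2B from −1.33 (CENPA) to 0.82 (CCNE1).

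At 1 ng/mL, against the same controls, fewer genes passed the limits. A549 had 3 genes called lower (MCM2, CENPA and KIF2C) and 7 called higher (MCM5, CDT1, UHRF1, CCNE1, CDC20, AURKB and MYBL2) of 46 genes at the minimum, against 12.6% and 10.9% of 7007 entries. Total counts gave 4 lower and 4 higher. BEAS-2B had MCM2, CCNB2 and UBE2C called lower of 49 genes, against 9.13% of 6681 entries, and 0 called higher, against 5.66%. Total counts gave 5 lower genes there. For total counts, shares of all entries were not counted at this dose either. With an FC of at least 1.5, A549 had 5 lower genes (10.9%, all entries 21.6%) and 15 higher genes (32.6%, all entries 24.1%). BEAS-2B had 12 lower genes (24.5%, all entries 19.4%) and 1 higher gene, CENPF (2.04%, all entries 15.2%).

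The median log2 FC of the 20 replication genes in A549 was 0.42 at 1 ng/mL and 0.47 at 5 ng/mL, and in BEAS-2B −0.12 and −0.29. The 33 mitosis genes had medians of −0.01 and −0.08 in A549, which took either sign under other scalings, and of −0.41 and −0.46 in BEAS-2B. Medians over all entries at the minimum were 0.09 and 0.11 in A549 and 0.01 and 0.03 in BEAS-2B. The 20 replication genes in A549 therefore lay above the middle of all entries and both lists of BEAS-2B below it. The cumulative plot shows these shifts over most of the range of the lists, but not in the lowest tail. For 50 other replication genes, described further below, the A549 median at 5 ng/mL was 0.09, against 0.11 for all entries.

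**Figure D2:**
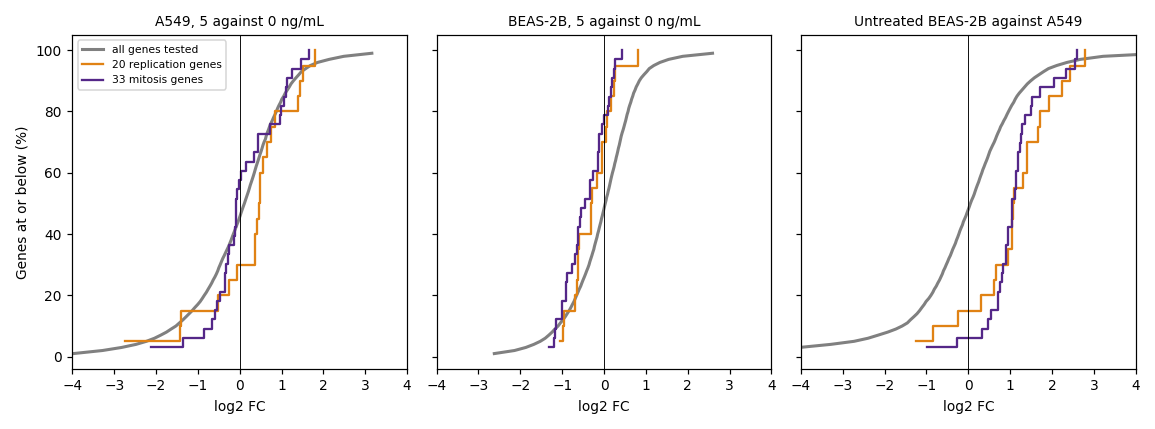
Each panel plots the percentage of genes (y axis) at or below a log2 FC (x axis), with all entries at the minimum in grey, the replication genes in orange and the mitosis genes in purple. In BEAS-2B at 5 ng/mL both lists lie left of all entries over most of their range, with medians of −0.29 and −0.46 against 0.03, and between the untreated lines both lie to the right, with medians of 1.09 and 1.04 against 0.05.

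Among the replication genes, those of the MCM helicase are described first. MCM2 to MCM7 form a single ring of 6 different subunits that is loaded on origins and unwinds DNA. MCM2 had normalized counts of 335, 162 and 125 at 0, 1 and 5 ng/mL in A549, and of 1055, 495 and 530.3 in BEAS-2B. It was lower in both treated libraries of both lines, with a log2 FC at 5 ng/mL of −1.41 (−1.72 to −1.12) and −0.99 (−1.16 to −0.83). MCM5 had 152, 329.8 and 529.8 normalized counts in A549 and 578, 620.0 and 651 in BEAS-2B. It was the highest FC of the replication genes in A549, with a log2 FC of 1.80 (1.53 to 2.09), while the interval in BEAS-2B included 0, with 0.17 (−0.01 to 0.35). Partners in the same ring thus stood on opposite sides of the control in A549.

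In A549 at 5 ng/mL, the other subunits lay between MCM2 and MCM5. The log2 FC was 0.85 (0.70 to 0.995) for MCM7, 0.74 (0.58 to 0.91) for MCM4, 0.36 (0.17 to 0.56) for MCM3 and −0.26 (−0.57 to 0.05) for MCM6. In BEAS-2B, MCM6 had −0.69 (−0.96 to −0.43), and MCM3, MCM4 and MCM7 lay between −0.17 and 0.27. MCM7 had 644, 1119 and 1160.4 normalized counts in A549 and 1353, 1381 and 1627 in BEAS-2B, which was the second highest FC of a replication gene in that line. MCM10, which acts when the loaded helicase is switched on, had a log2 FC of 0.36 in A549 and 0.06 in BEAS-2B.

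CDC6 and CDT1 load the MCM ring onto origins. CDC6 had 183, 245 and 256 normalized counts in A549 and 394, 383 and 467 in BEAS-2B, with a log2 FC at 5 ng/mL of 0.48 (0.20 to 0.77) and 0.25 (0.03 to 0.46). CDT1 had 115, 307 and 328 normalized counts in A549, a log2 FC of 1.51 (1.19 to 1.85) that was 0.73, too low for a call, once a trend over GC content was removed. In BEAS-2B it stayed between 228 and 236, a log2 FC of −0.05 (−0.35 to 0.24). Both loaders were higher in A549 at both doses, and CDT1 in BEAS-2B did not differ beyond counting error. GINS1 and GINS2 belong to the GINS complex, which joins MCM and CDC45 in the active helicase. GINS1 had 175, 312 and 257 normalized counts in A549 and 268, 208 and 175 in BEAS-2B. The log2 FC of GINS2 at 5 ng/mL was −0.06 in A549 and −0.62 in BEAS-2B.

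PCNA, the ring that clamps polymerases to DNA, was lower at both doses in both lines. It had 922, 599 and 339 normalized counts in A549 and 781, 551 and 503 in BEAS-2B. Its log2 FC at 5 ng/mL was −1.44 (−1.62 to −1.26) and −0.63 (−0.82 to −0.46). Ribonucleotide reductase makes the DNA building blocks from a large subunit, RRM1, and a small one, RRM2. RRM1 had 1318, 1247 and 925 normalized counts in A549 and 3254, 2216 and 1666 in BEAS-2B, with a log2 FC of −0.51 (−0.64 to −0.39) and −0.96 (−1.06 to −0.87). RRM2 had 346, 462 and 475 normalized counts in A549 and 1879, 1197 and 908 in BEAS-2B. Its log2 FC was 0.46 (0.25 to 0.67) in A549 and −1.05 (−1.18 to −0.92) in BEAS-2B, the lowest of the replication genes there. The call in BEAS-2B was lost under upper quartile factors (−0.98) and with the GC trend removed (−0.89). The 2 subunits were both lower in BEAS-2B and went in opposite directions in A549 at 5 ng/mL. Over the scaling alternatives, the A549 value of RRM1 ran from −0.72 to −0.15 and that of RRM2 from 0.25 to 0.76.

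Thymidylate synthase, encoded by TYMS, makes the thymidine nucleotide anew, and TK1 salvages it. TYMS had 438, 464 and 587 normalized counts in A549 and 696, 557 and 669 in BEAS-2B. The interval of its log2 FC at 5 ng/mL lay above 0 in A549, with 0.42 (0.24 to 0.61), and included 0 in BEAS-2B, with −0.06 (−0.23 to 0.11). TYMS overlaps ENOSF1, which is transcribed from the opposite strand, and the sources used here do not say whether reads were counted by strand. ENOSF1 had 193, 92.8 and 77.1 normalized counts in A549 and 165, 128 and 205 in BEAS-2B, so the level of TYMS is uncertain to that extent. TK1 had a log2 FC of 0.49 (0.28 to 0.70) in A549, which took the other sign once a trend over GC content was removed, and of −0.62 (−0.77 to −0.47) in BEAS-2B.

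E2F1, a transcription factor of the G1/S wave and itself a target of it, had 115, 205 and 313 normalized counts in A549 and 792, 998 and 642 in BEAS-2B. Its log2 FC at 5 ng/mL was 1.44 (1.12 to 1.79) in A549 and −0.30 (−0.47 to −0.14) in BEAS-2B. With the GC trend removed, the value in A549 was 0.88 and no longer a call. At 1 ng/mL, E2F1 was higher in both lines, with 0.83 and 0.33. MCM2 and E2F1, whose windows above both hold E2F letters and were chosen for their differing values, had opposite signs in A549. The E-type cyclins start CDK2 at the G1/S boundary, and the pair lay on different sides of the control in A549. CCNE1 had 96.2, 201 and 152 normalized counts in A549 and 40.2, 86.6 and 71.8 in BEAS-2B, with a log2 FC at 5 ng/mL of 0.65 (0.27 to 1.05) and 0.82 (0.21 to 1.48). CCNE2 had 73.0, 20.6 and 9.98 in A549 and 40.2, 22.5 and 32.7 in BEAS-2B.

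CCNE2 had the lowest log2 FC of the set in A549, −2.75 (−3.94 to −1.93), but from 63 counts in the control to 11, below the minimum for a call. In BEAS-2B, the interval of CCNE2 included 0. UHRF1, which brings the DNA methylation machinery to newly copied DNA, was chosen for description after its values were seen. It had 62.6, 149.8 and 165 normalized counts in A549 and 297, 218 and 239 in BEAS-2B. The plot of levels by dose shows these courses for 12 genes of both waves.

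**Figure D3:**
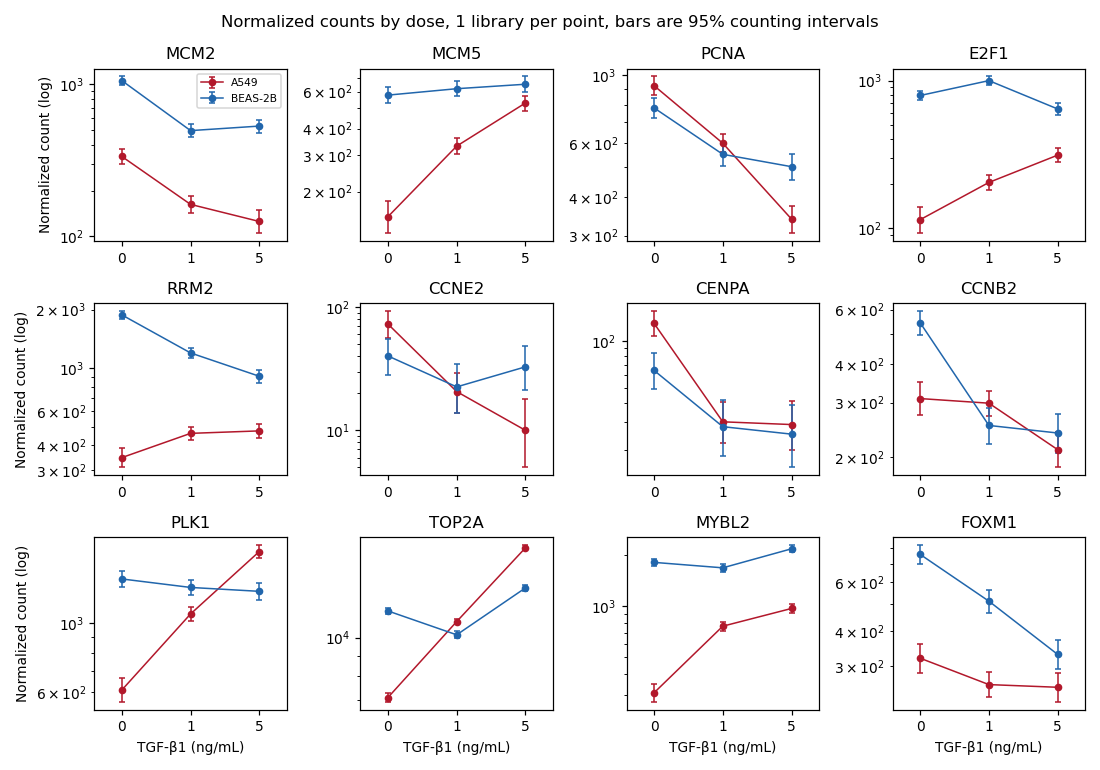
The y axis gives the normalized count on a log scale that differs between panels, and the x axis the 3 TGF-β1 doses at even spacing, with A549 in red, BEAS-2B in blue and bars for the 95% counting interval of 1 library. MCM2, PCNA, CENPA and CCNB2 are lower at 5 ng/mL in both lines, while MCM5, PLK1, TOP2A and MYBL2 are higher at each higher dose in A549, from 152 to 529.8 for MCM5.

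Mitotic entry depends on CDK1 with its cyclins and on the phosphatases that switch it on. CDK1 had 459, 363 and 330.2 normalized counts in A549 and 673, 425 and 427 in BEAS-2B. Its log2 FC at 5 ng/mL was −0.47 (−0.68 to −0.27) and −0.65 (−0.85 to −0.46), lower in both lines. Over the scaling alternatives, the A549 value ran from −0.68 to −0.10 and the BEAS-2B value from −0.78 to −0.59. CCNA2, the cyclin that serves S phase and early mitosis, had 239, 239 and 226 normalized counts in A549 and 586, 524 and 364 in BEAS-2B. It did not differ beyond counting error in A549, and its log2 FC in BEAS-2B was −0.68 (−0.90 to −0.48).

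At 5 ng/mL, the 2 B-type cyclins lay on different sides of the control in both lines. At 1 ng/mL in A549, both were below it. CCNB1 had 569, 438 and 722 normalized counts in A549 and 930.2, 952 and 1103 in BEAS-2B, with a log2 FC at 5 ng/mL of 0.34 (0.18 to 0.51) and 0.25 (0.11 to 0.38). CCNB2 had 309, 299 and 211 in A549 and 544, 253 and 239 in BEAS-2B, with −0.55 (−0.81 to −0.29) and −1.18 (−1.44 to −0.94). CCNB1 was above its control at 5 ng/mL in both lines and CCNB2 was below it in both. CDC25B and CDC25C remove the inhibitory phosphates from CDK1. CDC25B had 1868, 1031 and 734 normalized counts in A549 and 1559, 836 and 703 in BEAS-2B. It was the one gene of the set called lower in both lines at 5 ng/mL, with a log2 FC of −1.35 (−1.47 to −1.22) and −1.15 (−1.29 to −1.01). CDC25C had 0.95 (0.59 to 1.33) in A549 and −0.58 (−0.78 to −0.38) in BEAS-2B.

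CKS1B and CKS2 are the small subunits bound to cyclin-dependent kinases. CKS1B had 1068, 1055 and 1009 normalized counts in A549 and 2351, 1383 and 1261 in BEAS-2B, a log2 FC at 5 ng/mL of −0.08 (−0.21 to 0.05) and −0.90 (−1.01 to −0.79). CKS2 had 183, 183 and 173 in A549 and 255, 192 and 214 in BEAS-2B, and its intervals at 5 ng/mL included 0 in both lines. Beyond counting error, CKS1B differed at that dose in BEAS-2B, and CKS2 in neither line.

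The transcription factors of the G2/M wave differed between the lines. FOXM1 had 319.8, 257 and 251 normalized counts in A549 and 756, 513 and 330.0 in BEAS-2B. Its log2 FC at 5 ng/mL was −0.35 (−0.59 to −0.10) and −1.19 (−1.41 to −0.99), with a larger distance from the control in BEAS-2B. MYBL2, the B-MYB partner of MuvB, had 309, 763 and 971 normalized counts in A549 and 1814, 1684 and 2180.3 in BEAS-2B. With TMM it had the highest FC of the mitosis genes in A549, a log2 FC of 1.65 (1.46 to 1.85), and 0.27 (0.17 to 0.36) in BEAS-2B. Over the scaling alternatives, the A549 value of MYBL2 ran from 1.13 to 1.68 and that of TOP2A from 1.03 to 1.53, so the rank can depend on the scaling. At 5 ng/mL the 2 factors stood on opposite sides of their controls in both lines.

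PLK1 and the Aurora kinases drive the spindle, the centrosomes and cytokinesis. PLK1 had 611, 1068 and 1689 normalized counts in A549 and 1381, 1297 and 1261 in BEAS-2B, a log2 FC at 5 ng/mL of 1.47 (1.33 to 1.61) and −0.13 (−0.25 to −0.01). AURKB, the kinase of the chromosomal passenger complex, had 475, 1011 and 1047 in A549 and 1373, 1204 and 1267 in BEAS-2B. BIRC5, which encodes survivin in the same complex, had 682, 641 and 557 in A549 and 1311, 888 and 714 in BEAS-2B. The 3 genes lay apart in A549, where PLK1 and AURKB were above their control in both treated libraries and BIRC5 was not. The log2 FC of AURKB was 1.14 (0.98 to 1.31) in A549, with 0.93 under total counts and 0.89 with the GC trend removed, where that of BIRC5 was −0.29 (−0.46 to −0.13). In BEAS-2B, BIRC5 had −0.87 (−1.02 to −0.73) and the interval of AURKB included 0. AURKA, the kinase of the spindle poles, differed less than AURKB in A549. It had 759, 822 and 748 in A549 and 1285, 942 and 1019 in BEAS-2B. TPX2, which activates AURKA on the spindle, had a log2 FC of 0.73 (0.60 to 0.86) and 0.09 (−0.01 to 0.20).

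The spindle checkpoint, made of BUB1, BUB1B, TTK and MAD2L1, was read at low depth. BUB1B had 122, 111 and 135 normalized counts in A549 and 346, 254 and 385 in BEAS-2B. Its interval at 5 ng/mL included 0 in both lines. BUB1 had −0.62 (−1.05 to −0.22) in BEAS-2B at 5 ng/mL, and TTK stayed under the minimum in every library. CDC20 and UBE2C serve the ubiquitin ligase APC/C, which ends mitosis, and PTTG1 encodes securin, which that ligase destroys. CDC20 had 209.7, 482 and 440.0 normalized counts in A549 and 475, 388 and 516 in BEAS-2B. UBE2C had 374, 331 and 341 in A549 and 1902, 889 and 946 in BEAS-2B. The 2 genes thus differed from their controls in different lines, CDC20 in A549 with a log2 FC at 5 ng/mL of 1.07 (0.82 to 1.32) and UBE2C in BEAS-2B with −1.01 (−1.13 to −0.88). Both calls were near the limit. CDC20 had 0.86 under total counts and 0.72 with the GC trend removed, and UBE2C had −0.94 to −0.99 in the settings without a call.

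PTTG1 had 656, 1221 and 1415 normalized counts in A549 and 2705, 2223 and 2464 in BEAS-2B. In A549 at 5 ng/mL it had a log2 FC of 1.11, and of 0.90 under total counts, which is no call. PTTG1 has close copies that may share its reads, so its level is uncertain. PTTG2 had 15.4 to 41.7 normalized counts in A549 and 46.6 to 137 in BEAS-2B, and PTTG3P had 86.9 to 118 and 206 to 240. Both copies held far fewer counts than PTTG1 in every library.

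CENPA, the histone H3 variant that marks the centromere, had the lowest log2 FC of the mitosis genes in both lines. It had 129.8, 30.2 and 29.03 normalized counts in A549, a log2 FC at 5 ng/mL of −2.12 (−2.77 to −1.58). In BEAS-2B it had 64.7, 28.1 and 25.2, a log2 FC of −1.33 (−2.17 to −0.61) below the minimum for a call. The counts behind these values were 112, 44 and 32 in A549 and 58, 25 and 20 in BEAS-2B. CENPF, a large protein of the outer kinetochore, had 650.0, 864 and 875 normalized counts in A549 and 816, 1246 and 1099.6 in BEAS-2B. Its log2 FC at 5 ng/mL was 0.43 in both lines, with intervals of 0.28 to 0.58 and 0.29 to 0.57. CENPE, the kinetochore motor, had −0.27 (−0.71 to 0.17) and −0.06 (−0.37 to 0.26).

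Among the spindle motors, KIF2C, which takes apart microtubules at the kinetochore, had 152, 72.1 and 83.5 normalized counts in A549 and 502, 264 and 268 in BEAS-2B. Its log2 FC at 5 ng/mL was −0.85 (−1.26 to −0.47) and −0.90 (−1.15 to −0.67). KIF20A, a motor of cytokinesis, had −0.67 (−1.003 to −0.34) in A549 and −0.999 (−1.26 to −0.75) in BEAS-2B, just short of an FC of 2. Both motors were lower in both lines. KIF23, also needed for cytokinesis, had −0.07 in A549 and −0.76 (−1.07 to −0.47) in BEAS-2B. KIF11, which pushes the spindle poles apart, had 0.98 (0.65 to 1.33) in A549 and 0.01 in BEAS-2B. NUSAP1 and HMMR, which bind spindle microtubules, had −0.60 and −0.34 in A549 and −0.55 and −0.46 in BEAS-2B. Over the scaling alternatives in A549, NUSAP1 ran from −0.80 to −0.24 and HMMR from −0.545 to 0.04.

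MKI67, the usual marker of cycling cells, differed little at either dose. It had 1401, 1791 and 1879 normalized counts in A549 and 2596, 2234 and 2348 in BEAS-2B, with a log2 FC at 5 ng/mL of 0.42 (0.32 to 0.53) and −0.14 (−0.23 to −0.06). TOP2A, the enzyme that untangles sister chromatids, had 7088, 10959 and 16731 normalized counts in A549 and 11648, 10158 and 13294 in BEAS-2B. Its log2 FC was 1.24 (1.20 to 1.28) in A549 and 0.19 (0.15 to 0.23) in BEAS-2B. TOP2A held 33.5%, 40.9% and 50.0% of all mitosis gene counts in A549 at 0, 1 and 5 ng/mL, and 28.1%, 30.4% and 36.0% in BEAS-2B. In A549, a sum over the list therefore followed this gene.

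The summed normalized count of the mitosis genes in A549 was 21156, 26768 and 33491, and without TOP2A it was 14068, 15809 and 16760.0. The difference between the control and 5 ng/mL came in larger part from TOP2A. In BEAS-2B, the sum was 41392, 33400.3 and 36913, and without TOP2A 29744, 23243 and 23619. The replication genes summed to 6780.1, 8358 and 8055 in A549 and to 16038, 13391 and 12141 in BEAS-2B. Sums of BEAS-2B were thus below their control at both doses for both lists, and sums of A549 were above it. The size of the difference in A549 depended on the scaling. Without TMM, the replication genes of A549 held 0.141%, 0.155% and 0.146% of all counts at 0, 1 and 5 ng/mL. The mitosis genes without TOP2A held 0.293%, 0.293% and 0.303%, and all mitosis genes 0.441%, 0.497% and 0.605%. In BEAS-2B, these percentages were also below the control at both doses for both lists.

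The 2 lines were set side by side at 5 ng/mL, where they share no library. Of the 53 genes, 25 were below their control in both lines (47.2%), 14 above it in both (26.4%), and 14 above it in A549 and below it in BEAS-2B (26.4%). The reverse, lower in A549 and higher in BEAS-2B, was seen for 0 genes. Among the 5832 entries that reached the minimum in both lines, these shares were 31.1%, 42.3%, 15.9% and 10.6%. The replication genes contributed 8 and the mitosis genes 6 to the 14 split genes. With the GC trend removed, the split genes were 23 and those lower in both lines 17, and under total counts 18 and 26, so the tally depends on the scaling. In all of these settings, at most 1 gene was lower in A549 and higher in BEAS-2B. Across the 53 genes, the log2 FC of the lines correlated with 0.609 (Pearson) and 0.695 (Spearman), and across the 5832 entries 0.681 and 0.623. Genes are not independent replicates, and these numbers are descriptions. The replication genes alone had a Spearman correlation of 0.540 and the mitosis genes of 0.799. The plot of the lines against each other shows an empty upper left quadrant.

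**Figure D4:**
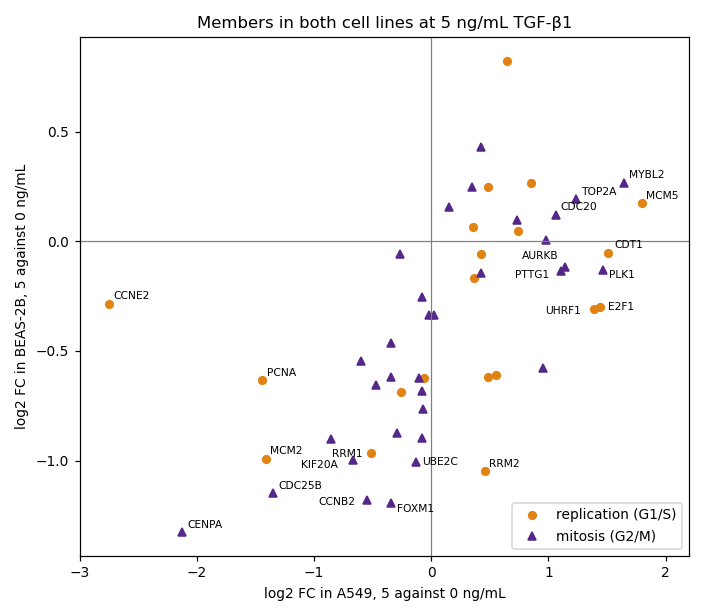
Each point is 1 gene, with its log2 FC at 5 against 0 ng/mL in A549 on the x axis and in BEAS-2B on the y axis, circles for replication and triangles for mitosis genes. The lower right quadrant holds 14 genes, among them RRM2 at 0.46 and −1.05, and the upper left quadrant holds 0.

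Before treatment, most of these genes were higher in BEAS-2B than in A549. Of 49 genes at the minimum, 30 were called higher, against 18.9% of 7329 entries, and 0 were called lower, against 18.1%. The median log2 FC of BEAS-2B against A549 was 1.09 for the replication genes and 1.04 for the mitosis genes, against 0.05 for all entries. The largest differences were those of E2F1 with 2.78 (2.48 to 3.11), CDC25C with 2.60 (2.28 to 2.95), MYBL2 with 2.55 (2.36 to 2.74), RRM2 with 2.44 (2.26 to 2.62) and UBE2C with 2.34 (2.17 to 2.52). Over the scaling alternatives, E2F1 ran from 2.21 to 2.84 and MYBL2 from 2.16 to 2.61, so their order is not fixed. This comparison also had a Spearman correlation with GC content, of 0.191 across 6890 entries and of 0.388 across the 53 genes. With that trend removed, CDT1 (0.53) and MCM7 (0.94) were no longer calls. PCNA, CDC25B, CENPA, CCNE1 and CCNE2 had a lower level in untreated BEAS-2B than in untreated A549, with a log2 FC of −0.24, −0.26, −0.99, −1.24 and −0.85. The untreated libraries are also the controls of the treated ones, so these differences and those under TGF-β1 are not independent.

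Between the doses, 0 genes of the set were called. In A549 at 5 against 1 ng/mL, 0 of 46 genes were called, against 1.79% of entries lower and 1.61% higher. In BEAS-2B, 0 of 48 genes were called, against 0.412% lower and 0.492% higher. The log2 FC of the set at 5 against 1 ng/mL ran from −1.15 to 0.82 in A549 and from −0.84 to 0.60 in BEAS-2B. The lowest value in A549 was that of MAD2L1, with 81.8 and 36.3 normalized counts, below the minimum. Medians were −0.02 in both lines.

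The A549 libraries carried a trend over the GC content of the transcript that touches these values. At 5 ng/mL, the log2 FC had a Spearman correlation with GC content of 0.318 across 6683 entries and of 0.357 across the 53 genes in A549. In BEAS-2B, the values were 0.084 and 0.023. The 10 genes called higher in A549 had a median GC content of 56.9%, the 4 called lower of 52.97% and the 34 others at the minimum of 46.1%. TOP2A, called higher at a GC content of 39.1%, and CDC25B, called lower at 59.3%, lie against the trend. With the trend removed in 20 bins of GC content, an alternative chosen after seeing the data, 8 genes were called higher and 4 lower in A549. CDT1, E2F1, CDC20 and AURKB lost their calls at 5 ng/mL, and MCM5, CDT1, CDC20, AURKB and MYBL2 lost theirs at 1 ng/mL. The plot of log2 FC over GC content shows the trend in A549 and its near absence in BEAS-2B.

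**Figure D5:**
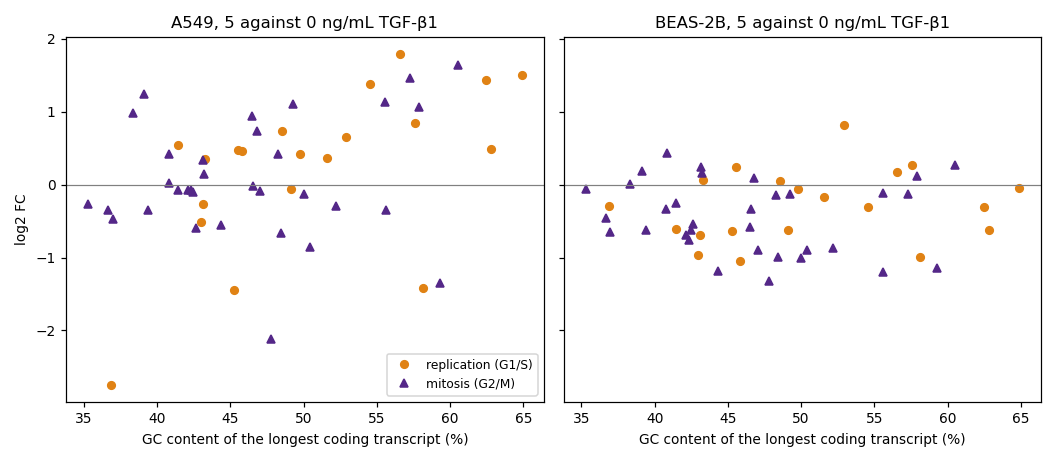
The x axis gives the GC content of the longest coding transcript in percent and the y axis the log2 FC at 5 against 0 ng/mL TGF-β1, with circles for replication and triangles for mitosis genes. Spearman correlations across the 53 genes are 0.357 in A549 and 0.023 in BEAS-2B.

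Further genes of the same pathways were counted in the same way, against 17.1% of all entries called lower and 16.1% higher in A549 and 11.6% and 7.33% in BEAS-2B. The 3 lowest and 3 highest of each list were ranked over all its genes, including those below the minimum for a call. Of 50 other replication genes, 4 were called lower and 4 higher in A549 at 5 ng/mL among 32 at the minimum (12.5% each way), and 8 lower (19.5%) and 0 higher in BEAS-2B among 41. Their medians were 0.09 and −0.36, against 0.11 and 0.03 for all entries. FEN1, the nuclease that trims Okazaki fragments, had 648, 443 and 246 normalized counts in A549 and 1965, 740.4 and 559 in BEAS-2B. It was among the 3 lowest in both lines, with POLE2 and CDCA7 in A549 (−2.31 and −1.96) and CDC45 and RPA3 in BEAS-2B (−1.55 and −1.49). The 3 highest were BLM (1.44), CHAF1A (1.21) and LIG1 (1.17) in A549 and POLA1 (0.76), RFC3 (0.59) and BLM (0.53) in BEAS-2B.

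Of 58 other mitosis genes, 3 were called lower (8.11%) and 4 higher (10.8%) in A549 among 37 at the minimum, and 6 lower (11.8%) and 0 higher in BEAS-2B among 51. Their medians were −0.07 and −0.52. OIP5, which helps to place CENPA at centromeres, was among the 3 lowest in both lines with −1.52 and −1.77. PLK4 (−2.30) and ESPL1 (−1.95) in A549 and KIFC1 (−1.84) and PSRC1 (−1.65) in BEAS-2B made up the rest. KIFC1 has several entries, of which the first was used. INCENP, the scaffold of the chromosomal passenger complex, had the highest value in A549 with 1.60, followed by NDC80 (1.31) and CKAP2 (1.29). In BEAS-2B, KIF18A (1.499), KIF15 (0.65) and CKAP2 (0.53) were highest, but KIF18A lay below the minimum for a call.

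Of 17 E2F, RB and MuvB factors, 2 were called lower (20%) and 1 higher (10%) in A549 among 10 at the minimum, and 1 lower and 1 higher (9.09% each) in BEAS-2B among 11. The medians were −0.17 and −0.21. RB1, the retinoblastoma protein that holds E2F factors back, had 110.1, 22.0 and 24.5 normalized counts in A549 and 163, 37.1 and 57.9 in BEAS-2B. Its log2 FC was −2.12 (−2.84 to −1.54) and −1.48 (−2.002 to −1.004). RB1 stayed below the minimum for a call in A549 and was the 1 factor called lower in BEAS-2B. E2F4, an E2F factor of the repressive DREAM complex, had −1.73 and −1.59, and it made up the 3 lowest with RB1 and TFDP1 (−1.08) in A549 and LIN54 (−1.40) in BEAS-2B. The 3 highest were LIN52 (2.24), E2F7 (1.26) and LIN37 (1.24) in A549 and LIN37 (1.42), E2F7 (1.30) and LIN52 (0.62) in BEAS-2B. Since 1 factor was called higher in each line, the others with an FC above 2 lay below the minimum. The same holds for E2F4 and LIN54 in BEAS-2B.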

How the data were processed

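Libraries of 3′ mRNA (QuantSeq) from both lines without TGF-β1 or with 1 or 5 ng/mL were used, 1 for each of the 6 conditions. The authors deposited raw read counts per gene symbol. The submitters' processing notes name Bowtie2, bedtools and hg19, and the study's methods name ExDEGA. The annotation, the strand setting and filters are not given in the sources used here. Samples were grouped by their labels. Counts were scaled with TMM factors of edgeR 4.0.16 (R 4.3.3) over all entries and expressed at the mean effective library size. FC and ND values used a pseudocount of 1. No test was run, since each condition had 1 library. Exact intervals came from scipy 1.17.1, and the other steps used Python 3.11.15, pandas 2.3.3 and numpy 2.4.6. A count of 0 allows up to 3 counts. The steps were tested on simulated counts.

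All 53 genes were counted. Values in every library were given for 23 landmark genes, the 3 lowest and 3 highest log2 FC of each list and line at 5 ng/mL, and genes called in opposite directions, of which there were 0. AURKB, CDC20, GINS1, MCM7, PTTG1, UBE2C and UHRF1 were given in full after their values were seen. The genes and lists were chosen with earlier results of these data known. Alternatives comprised other size factors (DESeq2 1.42.0 among them), filters, pseudocounts, thinning and FC limits. Those for the untreated lines and the removal of a GC trend were added later. Promoters came from RefSeq.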

Additional observations from a re-analysis of the deposited data

Results flagged for a closer look

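For 5 genes, the counting intervals of the log2 FC lay above 0 in A549 and below 0 in BEAS-2B at both doses, each dose against the same control library. The difference between the lines was not tested, since each condition had 1 library. Only genes of the set were searched for this pattern, and the share of all entries with it was not counted. RRM2, the small subunit of ribonucleotide reductase, had a log2 FC of 0.456 in A549 and −1.05 in BEAS-2B at 5 ng/mL, and of 0.413 and −0.65 at 1 ng/mL. GINS1, a part of the active helicase, had 0.551 and −0.61 at 5 ng/mL and 0.831 and −0.361 at 1 ng/mL. UHRF1, which links DNA copying to DNA methylation, had 1.39 and −0.309 at 5 ng/mL and 1.25 and −0.441 at 1 ng/mL. MKI67, the common marker of cycling cells, had 0.423 and −0.145 at 5 ng/mL and 0.354 and −0.217 at 1 ng/mL. PTTG1, which encodes securin and has close copies that can share its reads, had 1.11 and −0.135 at 5 ng/mL and 0.896 and −0.283 at 1 ng/mL.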

How the results depend on the processing

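With 1 library per condition, no replicate could be left out and no paired analysis was possible because the groups share no replicates. Over the scaling alternatives, the median log2 FC of the replication genes stayed between 0.26 and 0.58 in A549 and between −0.42 and −0.23 in BEAS-2B at 5 ng/mL. The mitosis genes stayed between −0.59 and −0.40 in BEAS-2B but ran from −0.28 to 0.15 in A549 (−0.18 to 0.24 at 1 ng/mL). Total counts alone moved the median of all entries by −0.25 in A549 and −0.15 in BEAS-2B at 5 ng/mL, and by −0.19 and −0.14 at 1 ng/mL.

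Counts of called genes depended on the limits. Apart from an FC of 1.5 under TGF-β1, shares of all entries were not counted under these settings. The shares given for the main settings are not their background. In A549 at 5 ng/mL, 10 higher genes became 16 at an FC of 1.5, 2 at an FC of 3 and 5 when the ND value was log2(CPM + 1), and 4 lower genes became 7, 1 and 2, and 2 with the minimum in both libraries. At 1 ng/mL, 7 higher genes became 15, 0 and 2 in the same order, 4 with the minimum in both libraries, 4 under total counts and 3 with the GC trend removed. The 3 lower genes became 5, 1 and 0, 1 with the minimum in both libraries and 1 after thinning. In BEAS-2B at 5 ng/mL, 5 lower genes became 20 at an FC of 1.5, 0 at an FC of 3, 11 under total counts and 3 under upper quartile factors. At 1 ng/mL, 3 lower genes became 12, 0 and 5 under the first 3 of these, and 0 higher genes became 1 at an FC of 1.5 and 1 without a minimum. Between the untreated lines, 30 higher genes became 11 at an FC of 3 and 17 with log2(CPM + 1), and 0 lower genes became 1 each under DESeq2 size factors, upper quartile factors, the 10-count filter, no minimum and an FC of 1.5. The causes were not tested beyond the construction of each limit. CCNE2, CENPA and TTK held 11 to 112 counts, so depth limits their values.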
